A study of Mus musculus with 6 samples.

Results

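The genes described here are the 4 chains of the receptors for type I interferon and interferon gamma (Ifnar1, Ifnar2, Ifngr1 and Ifngr2) and 5 intracellular factors that interferon itself can induce (Stat2, Irf1, Irf7, Irf9 and Socs1). These 9 of the 34745 genes in the count table were taken by gene name, as parts of 1 signalling route. Each name occurred on 1 row, all 9 are protein-coding, and all 9 had enough counts to be tested. The libraries came from primary mouse renal fibroblasts of wild-type (WT) genotype, grown out of enzyme-digested kidney. Fibroblasts with no treatment formed the lone group (3 libraries), and fibroblasts kept for 24 h under a 0.4-μm transwell insert that held Th17 cells formed the cocultured group (3 libraries). Only cells of the lower chamber were collected, so the cell types shared medium through the pores. The Th17 cells had been induced from CD4+ T cells with interleukin-1β, interleukin-6 and interleukin-23 on plates coated with antibodies to CD3 and CD28, and with a blocking antibody to interferon gamma in the induction medium. Whether that antibody or those cytokines were carried into the coculture, whether lone wells held an empty insert, and whether each library had its own well or animal was not stated. The study kept Balb/c mice, but did not say that the fibroblasts came from them, and the age and sex of the donor mice were not given in the sources used here. The errors and p-values given here thus measure how far these libraries differed, and that spread may be technical.

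Interferons act through paired receptor chains that carry Janus kinases on their inner side. Type I interferon joins IFNAR1, which holds TYK2, to IFNAR2, which holds JAK1, and the kinases then phosphorylate STAT2 and other STAT proteins. STAT2 joins IRF9 in a complex, ISGF3, that binds the interferon-stimulated response element (ISRE). Interferon gamma joins IFNGR1, the chain that holds JAK1, to IFNGR2, which holds JAK2, and leads to STAT dimers that bind the gamma-activated site (GAS). IRF1 is a transcription factor induced early by interferon gamma, IRF7 drives transcription of the type I interferon genes, and SOCS1 is a feedback inhibitor of the kinases. In many tissues Stat2, Irf1, Irf7, Irf9 and Socs1 are themselves interferon-inducible, whereas the receptor chains are present in most cells at rest.

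The letters upstream of the members that changed most are shown first, because the GAS core and the ISRE core are the elements through which the pathway reads its own target genes. RefSeq promoter windows on GRCm38.p6, from 250 bases before to 50 bases after a gene start, were available for all 9 members (11 windows). The GAS core was searched as TTCNNNGAA, which reads the same on both strands, and the ISRE core as GAAANNGAA or its reverse complement TTCNNTTTC. Of 32544 windows of distinct sequence in the whole table, 8.33% held the GAS core and 8.53% the ISRE core. The part of the window before the annotated gene is printed below 5′ to 3′ on the strand of the gene, in lower case with each match in capitals. The regions are chr11:53769764-53770013 (plus strand) for Irf1, chr10:128270248-128270497 (plus) for Stat2, chr16:10785537-10785786 (minus) for Socs1, chr7:141266482-141266674 (minus) for Irf7, chr16:91372533-91372782 (plus) for Ifnar2 and chr16:91546809-91547058 (plus) for Ifngr2.
Irf1: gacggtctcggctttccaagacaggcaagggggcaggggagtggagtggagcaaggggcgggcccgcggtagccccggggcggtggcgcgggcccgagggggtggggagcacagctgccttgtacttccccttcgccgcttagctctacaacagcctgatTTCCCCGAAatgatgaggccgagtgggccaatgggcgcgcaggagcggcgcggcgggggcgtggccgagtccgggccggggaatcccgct
Stat2: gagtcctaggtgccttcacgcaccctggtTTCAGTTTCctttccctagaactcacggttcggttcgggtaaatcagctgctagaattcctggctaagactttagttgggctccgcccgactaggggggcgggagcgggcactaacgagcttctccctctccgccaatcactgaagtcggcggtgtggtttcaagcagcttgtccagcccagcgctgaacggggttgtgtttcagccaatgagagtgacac
Socs1: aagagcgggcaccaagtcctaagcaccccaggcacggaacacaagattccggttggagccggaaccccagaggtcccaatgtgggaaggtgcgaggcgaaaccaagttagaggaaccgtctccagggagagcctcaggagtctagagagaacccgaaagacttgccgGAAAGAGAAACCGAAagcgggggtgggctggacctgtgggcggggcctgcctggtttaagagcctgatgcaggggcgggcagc
Irf7: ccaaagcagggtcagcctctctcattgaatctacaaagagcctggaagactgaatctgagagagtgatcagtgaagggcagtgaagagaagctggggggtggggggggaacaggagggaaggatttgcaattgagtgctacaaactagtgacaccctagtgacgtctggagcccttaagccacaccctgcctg
Ifnar2: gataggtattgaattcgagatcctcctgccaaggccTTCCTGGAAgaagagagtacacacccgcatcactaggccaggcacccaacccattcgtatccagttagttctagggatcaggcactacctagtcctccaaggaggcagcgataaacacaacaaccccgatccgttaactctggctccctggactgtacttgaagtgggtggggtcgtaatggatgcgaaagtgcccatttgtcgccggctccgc
Ifngr2: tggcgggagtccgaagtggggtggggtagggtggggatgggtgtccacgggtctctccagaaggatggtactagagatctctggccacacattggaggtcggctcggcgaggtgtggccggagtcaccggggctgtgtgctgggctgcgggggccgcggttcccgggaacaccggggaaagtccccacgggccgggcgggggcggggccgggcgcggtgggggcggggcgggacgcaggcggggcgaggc

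Of the 2 windows of Irf1, the printed one held 1 GAS core, TTCCCCGAA, and the other held no match. The first base of this core lay at −90 from the gene start. Socs1 held a pair of overlapping ISRE cores, GAAAGAGAA from −83 and GAAACCGAA from −77, which share 3 bases. Stat2 held 1 ISRE core on the opposite strand, TTCAGTTTC from −221. Among the receptors, Ifnar2 held a GAS core, TTCCTGGAA from −214, and Ifnar1 held TTCACGGAA from −5, across its start. The windows of Irf7, Irf9, Ifngr1 and Ifngr2 held neither set of letters, which says only that these letters are not in these windows. Both windows of Irf9 lay inside the gene as placed in the count table, so the bases before that start were not searched. Matches are described as letters, not as bound sites.

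All libraries were of similar depth, between 12050529 and 13209581 fragments, and a floor of 3 counts equalled 0.223 to 0.254 CPM (counts scaled to a common library size, corrected by the TMM factors of edgeR). No library was a copy of another within its group, since the chi-square per gene between libraries of a group was at least 6.07, where counting noise alone gives 1. All 10 fibroblast markers were tested, and the 3 collagen genes among them had 10974 to 202700 counts in a library. The summed level of the 10 was 34080 to 35970 CPM in lone and 14240 to 15940 CPM in cocultured libraries. Of the 10, 8 were lower and 1 higher at an adjusted p below 0.05, where 20.0% of all genes tested were lower and 17.1% higher. Of 12 macrophage markers 4 could be tested, each of them lower in coculture. Their list sum was 47.6 to 50.6 CPM in lone libraries and 8.215 to 10.3 CPM in cocultured libraries, and Adgre1, which defines macrophages, had 47 to 71 counts in lone libraries and 0 in each cocultured library. Of 16 T cell markers 3 were tested and 2 were lower. Their sum was 8.77 to 10.3 CPM in lone and 5.03 to 6.02 CPM in cocultured libraries, with Cd3d at 0 in all 6 libraries. No B cell or plasmacytoid dendritic cell marker had more than 2 counts. Endothelial marker sums were 6.79 to 7.52 against 1.597 to 2.749 CPM. Of these markers Kdr was lower, at a mean of 5.55 against 0.127 CPM, while Pecam1 overlapped, at 1.235 against 1.322 CPM. Tek and Cdh5, with few counts, also overlapped, and Emcn had 0 counts in all 6 libraries. Epithelial sums were 1.40 to 2.69 against 0.837 to 1.18 CPM. The part of these other cells in the results below was not tested, and in bulk RNA fewer cells of a type cannot be told apart from less RNA per cell.

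To ask how the receptors and the inducible factors of the interferon route changed in fibroblasts exposed to Th17 cells, each member was read from a fit over all 13088 genes tested. The inducible factors mostly decreased. Of 5, 4 were lower and 1, Socs1, was higher at an adjusted p below 0.05 by edgeR's quasi-likelihood test. Of the 4 receptor chains, 1 was lower (Ifnar2), 1 was higher (Ifngr2) and 2 did not pass the test (Ifnar1 and Ifngr1). Among all genes tested, 20.0% were lower, 17.1% higher and 37.1% either at this threshold. With a fold change above 2 also required, 3 factors (Irf7, Irf1 and Stat2) and no receptor were called, against 7.78% of all genes called lower, 3.87% called higher and 11.6% called either way. Lone and cocultured CPM ranges were apart for 7 members, 5 lower and 2 higher, where 26.1% of all genes were without overlap and lower and 24.3% were without overlap and higher.

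**Figure D1:**
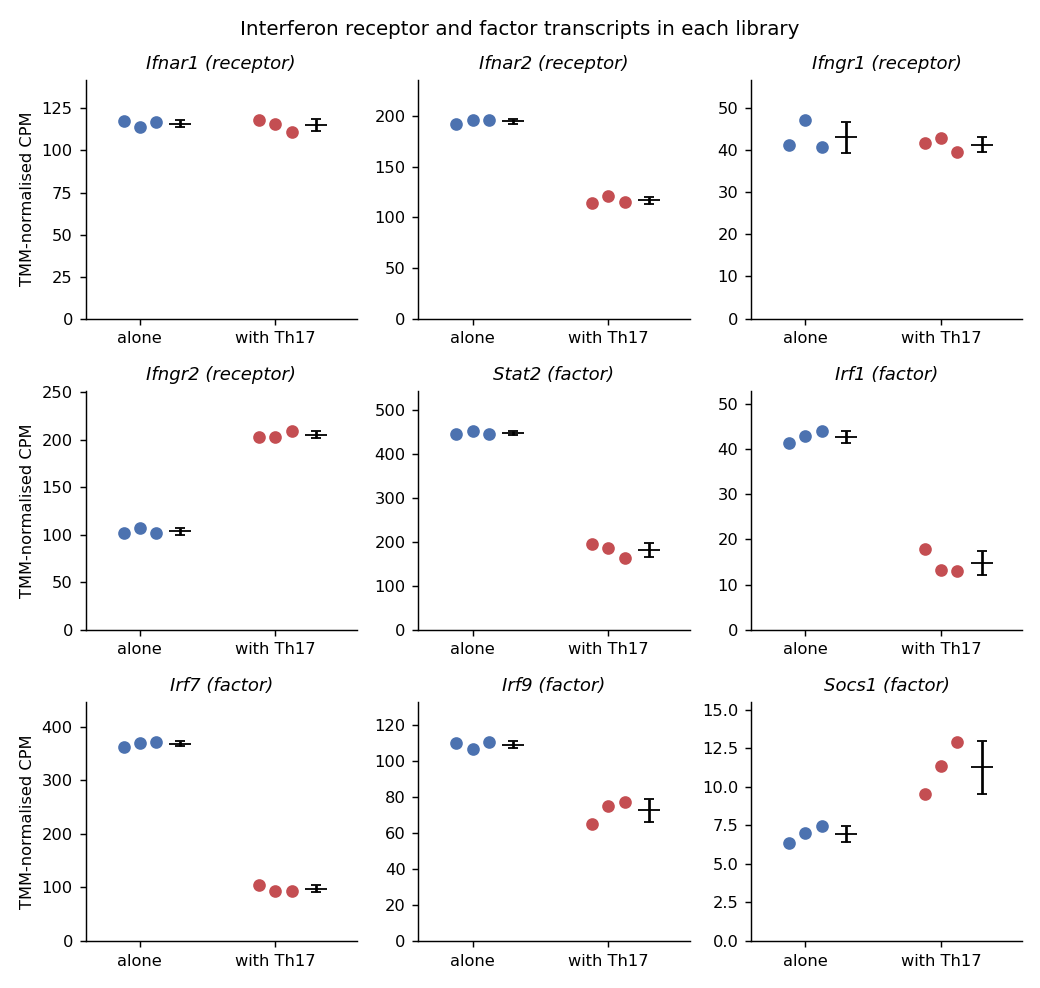
TMM-normalised CPM (vertical axes, each from 0) of the 9 genes in 3 libraries of lone fibroblasts (blue points) and 3 libraries of fibroblasts with Th17 cells (red points), with black bars for mean and SD. The groups overlap for Ifnar1 and Ifngr1 and are apart for the other 7 genes, of which Ifngr2 and Socs1 are higher with Th17 cells.

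The type I receptor chains changed unequally. Ifnar1 (ENSMUSG00000022967, chromosome 16, 91485238 to 91507441), the chain that holds TYK2, had counts of 1514, 1439 and 1380 alone and of 1593, 1470 and 1461 with Th17 cells. The groups overlapped, at 116 ± 2.01 against 115 ± 3.67 CPM (SD, n = 3 each). The log2 fold change was −0.01 with a 95% interval from −0.15 to 0.12 (SE 0.0591, edgeR adjusted p = 0.901), so a change beyond these bounds was not seen at this depth.

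Ifnar2 (ENSMUSG00000022971, chromosome 16, 91372783 to 91405589), the chain that binds type I interferon with high affinity, had 2478, 2492 and 2317 counts alone and 1543, 1540 and 1519 with Th17 cells. Every cocultured library lay below every lone library. Ifnar2 fell from 195 ± 2.39 to 117 ± 3.39 CPM (SD, n = 3 each), to 60.04% of the lone level (−0.74 ± 0.057 (SE) in log2 units, with 1.12e-05 as the adjusted p of edgeR). Its exons share 315 bases with Gm21970 on the same strand, a gene of 27 to 44 counts per library.

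Of the interferon gamma receptor, the signalling chain rose and the ligand-binding chain did not pass the test. Ifngr1 (ENSMUSG00000020009, chromosome 10, 19591949 to 19610229), which binds interferon gamma, had 531, 597 and 480 counts alone and 558, 545 and 518 with Th17 cells. These groups overlapped, at 43.0 ± 3.63 against 41.2 ± 1.72 CPM (SD, n = 3 each), and the log2 fold change was −0.06 with a 95% interval from −0.26 to 0.14 (SE 0.0863, edgeR adjusted p = 0.622). Ifngr2 (ENSMUSG00000022965, chromosome 16, 91547072 to 91565169), which brings JAK2 to the complex, had 1307, 1361 and 1207 counts alone and 2734, 2588 and 2756 with Th17 cells. The groups were far apart, with a smaller spread in each than the gap between them. Ifngr2 increased from 104 ± 3.35 to 205 ± 3.68 CPM (SD over 3 libraries each), or 1.98-fold (log2 0.99, SE 0.0583, edgeR adjusted p = 1.86e-06). This value sits at the fold limit, and with library size as the only scaling it was 1.05 on the log2 scale, above it.

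Ratios of chains within a library do not depend on scaling between libraries. The ratio of Ifnar2 to Ifnar1, each as counts per kilobase of annotated exon, was 2.92, 3.09 and 2.996 in lone libraries and 1.73, 1.87 and 1.85 in cocultured libraries. The ratio of Ifngr2 to Ifngr1 was 1.86, 1.72 and 1.90 alone and 3.70, 3.59 and 4.02 with Th17 cells. The first ratio was thus lower and the second higher in every cocultured library, by 0.72 and 1.04 on the log2 scale. Each had p = 0.1 in a two-sided exact permutation test, the smallest that 3 against 3 libraries allows. The members were chosen with results of these data known, so this p is not separate evidence of a change.

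**Figure D2:**
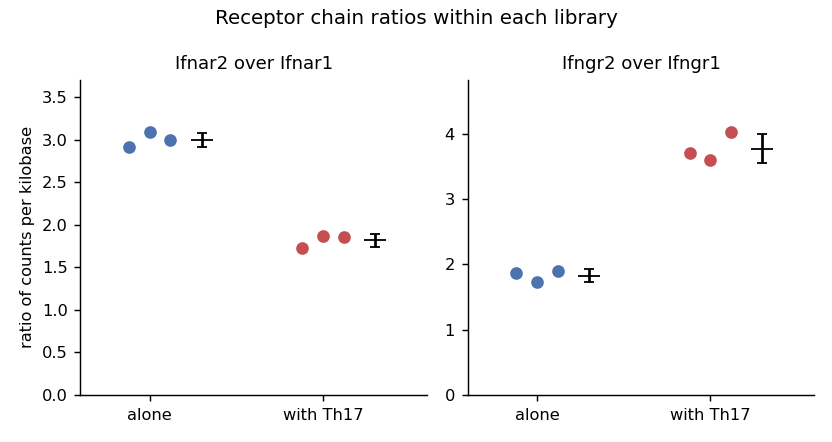
Ratio of counts per kilobase of exon (vertical axes, from 0) between the chains of the type I interferon receptor (left) and of the interferon gamma receptor (right) in each library, lone in blue and with Th17 cells in red, with mean and SD in black. The left ratio moves from 3.002 ± 0.085 to 1.82 ± 0.0776 and the right ratio from 1.83 ± 0.0931 to 3.77 ± 0.224.

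Receptor genes on chromosome 16 are neighbours. Ifnar2, Ifnar1 and Ifngr2 lie with Il10rb, a chain shared by the receptors for interleukin-10 and interferon lambda, in 192387 bases of chromosome 16, all on the plus strand. In this order along the chromosome the log2 fold changes were −0.74 for Ifnar2, −0.27 for Il10rb, −0.01 for Ifnar1 and 0.99 for Ifngr2. Il10rb (chromosome 16, 91406164 to 91425834) did not pass the test (SE 0.108, edgeR adjusted p = 0.0776), and without cocultured replicate 2 it passed, at −0.37 (edgeR adjusted p = 0.0295). The neighbours at either end thus moved in opposite directions.

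Stat2 and the IRF genes decreased, to differing extents. Irf7 (ENSMUSG00000025498, chromosome 7, 141262706 to 141266481) had counts of 4671, 4684 and 4396 alone and of 1408, 1190 and 1236 with Th17 cells. No cocultured library came near a lone one. Irf7 decreased from 368 ± 4.88 to 97.4 ± 6.32 CPM (SD, n = 3 each), to 26.5% of the lone level, the lowest log2 fold change of the 9 members (−1.92, SE 0.0655, edgeR adjusted p = 7.99e-08). Its exons share 45 bases with Phrf1 on the opposite strand. Phrf1 had 414 to 681 counts per library and was at 0.31 in log2 units (SE 0.125), which did not pass (edgeR adjusted p = 0.0827).

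Irf1 (ENSMUSG00000018899, chromosome 11, 53770014 to 53778374), whose promoter window held the GAS core, had 533, 542 and 521 counts alone and 239, 169 and 172 with Th17 cells. Replicate 1 was the highest of the cocultured libraries and still lay below all lone libraries. Irf1 fell from 42.7 ± 1.34 to 14.7 ± 2.65 CPM (SD, n = 3 each). On the log2 scale this was −1.54 ± 0.126 (SE), with an edgeR adjusted p of 1.6e-05. Gm17334, which shares 135 bases with it on the opposite strand, had 0 counts in all 6 libraries.

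Both ISGF3 subunits among the members, Stat2 and Irf9, decreased. Stat2 (ENSMUSG00000040033, chromosome 10, 128270576 to 128292849) had 5719, 5725 and 5252 counts alone and 2622, 2351 and 2155 with Th17 cells. It decreased from 447 ± 4.8 to 181 ± 15.8 CPM (SD, n = 3 each). On the log2 scale this was −1.30 ± 0.0718 (SE), with an edgeR adjusted p of 1.17e-06. The cocultured libraries spread more than the lone ones, and none came near them. Irf9 (ENSMUSG00000002325, chromosome 14, 55603571 to 55610030), the subunit that contacts the ISRE, had 1412, 1348 and 1306 counts alone and 873, 953 and 1016 with Th17 cells. It decreased from 109 ± 2.07 to 72.4 ± 6.56 CPM (SD, n = 3 each), to 66.5% of the lone level (−0.59 ± 0.0783 (SE) in log2 units, with 0.000372 as the adjusted p of edgeR). The ratio of Stat2 to Irf9 per kilobase was 3.68, 3.86 and 3.66 in lone and 2.73, 2.24 and 1.93 in cocultured libraries, without overlap (two-sided exact permutation p = 0.1, the smallest possible). As for the receptor ratios, the p of this ratio is not separate evidence of a change. Irf9 shares 123 exon bases with Rnf31 on the same strand, and Rnf31 was also lower, at −0.66 (SE 0.113, edgeR adjusted p = 0.00165). How fragments in the shared bases were divided was not stated.

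Socs1 moved against the other factors. Socs1 (ENSMUSG00000038037, chromosome 16, 10783808 to 10785536), whose product inhibits the Janus kinases, had 82, 89 and 88 counts alone and 128, 145 and 170 with Th17 cells. The groups did not overlap, although the counts were the lowest of the members. Socs1 increased from 6.94 ± 0.543 to 11.3 ± 1.71 CPM (SD over 3 libraries each), or 1.62-fold with a wide interval (log2 0.70, 95% interval from 0.35 to 1.05, SE 0.155, edgeR adjusted p = 0.00663).

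**Figure D3:**
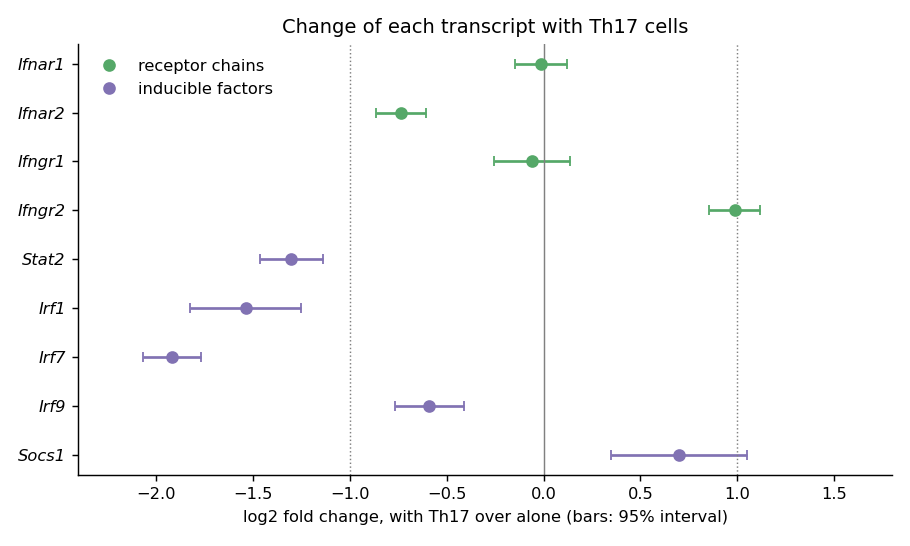
Log2 fold change of each gene, with Th17 cells over alone (horizontal axis), from the fit over all genes, with 95% intervals as bars, receptor chains in green and inducible factors in purple; dotted lines mark a fold change of 2. The intervals of Irf7, Irf1 and Stat2 lie wholly below −1, that of Irf9 lies between −0.77 and −0.41, and those of Ifnar1 and Ifngr1 span 0.

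Set beside each other as groups, the receptors had a median log2 fold change of −0.04, from −0.74 to 0.99, and the factors a median of −1.30, from −1.92 to 0.70. The median over all genes tested was 0.00. Each cocultured library gave the same picture. The mean of the 5 factors on the log2 CPM scale, relative to the lone mean, was −0.91, −0.95 and −0.94 in the cocultured libraries, while the mean of the 4 receptors was 0.05, 0.07 and 0.02. In the lone libraries both means lay between −0.0376 and 0.0437, which shows only their spread, because the lone mean was the reference. The receptor mean hides the opposite changes of Ifnar2 and Ifngr2, and the factor mean includes the increase of Socs1. No p is given for these means, because the members were chosen with results of these data known.

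The order of the transcripts by level also changed. Levels of different genes were compared as CPM per kilobase of annotated exon. In lone fibroblasts Irf7 was the highest of the members at 97.5 ± 1.29 and Stat2 followed at 75.4 ± 0.810 CPM per kilobase. The receptor chains and Irf9 came next, with Ifnar2 at 58.6 ± 0.719, Ifngr2 at 27.5 ± 0.889, Irf9 at 20.2 ± 0.384, Ifnar1 at 19.5 ± 0.339 and Ifngr1 at 15.1 ± 1.27. Irf1, at 10.8 ± 0.338, and Socs1, at 2.39 ± 0.187, were lowest. Irf9 and Ifnar1 overlapped in range, and all other neighbours in this order were apart. With Th17 cells Ifngr2 was highest, at 54.5 ± 0.976 CPM per kilobase, ahead of Ifnar2 at 35.2 ± 1.02, Stat2 at 30.6 ± 2.67, Irf7 at 25.8 ± 1.67, Ifnar1 at 19.4 ± 0.618, Ifngr1 at 14.5 ± 0.603 and Irf9 at 13.4 ± 1.22. Socs1 and Irf1 were lowest on this scale and overlapped, at 3.88 ± 0.588 and 3.70 ± 0.667 CPM per kilobase. The ranges of Stat2 and Irf7, and of Ifngr1 and Irf9, overlapped as well. The exon length used for Socs1, 2908 bases, exceeds the 1729 bases that Socs1 spans in the count table. Its level per kilobase may thus be too low, and its overlap with Irf1 rests on that length. The deposited FPKM imply other gene lengths. By FPKM, Stat2 stood above Irf7 in lone cells (97.5 ± 1.04 against 56.1 ± 0.900 FPKM). Stat2 also stood above Ifnar2 in cocultured cells (41.3 ± 3.46 against 19.6 ± 0.466 FPKM). Cocultured Socs1, at 9.45 ± 1.46 FPKM, stood above Irf9, at 8.62 ± 0.792, and well above Irf1, at 2.61 ± 0.471 FPKM. The cocultured ranks of Socs1 and Irf9, and the overlap of Socs1 with Irf1, thus depend on the scale used. In lone cells Irf1 and Socs1 were lowest on both scales. On both scales Irf7 and Stat2 led in lone cells and Ifngr2 led in cocultured cells.

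The other genes of the route were then read from a list of 76 ordered by role, of which 48 were tested. Outside the target genes the list held 56 genes, of which 30 were tested. Of these 4 were lower, 4 were higher and 22 did not pass the test, with a median log2 fold change of −0.05. Of 20 target genes 18 were tested and all 18 were lower, each by more than 2-fold, with a median of −2.53. For comparison, 20.0% of all genes tested were lower, 17.1% were higher and 7.78% were lower by more than 2-fold. The counts outside the targets thus did not exceed the shares over all genes.

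Interferon ligands were near the floor in all libraries. None of 21 ligand genes was tested, 16 had 0 counts in every library, and no ligand had more than 6 counts. Ifnb1 had 4, 6 and 4 counts alone and 0, 4 and 3 with Th17 cells, and Ifng had 0 counts in all 6 libraries, which allows up to 3 counts in each. Ifna4 had 2, 5 and 0 counts alone and 0 in each cocultured library. Differences between the groups were not detectable at this depth.

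The Janus kinases did not pass the test. Jak1 stood at −0.03 in log2 units (SE 0.056, edgeR adjusted p = 0.757) with a 95% interval from −0.15 to 0.10, and Jak2 −0.11 (SE 0.0586, edgeR adjusted p = 0.166) with an interval from −0.25 to 0.02. Jak3, at −0.38, and Tyk2, at 0.23, both had an edgeR adjusted p of 0.11. Without lone replicate 3 Jak3 passed at −0.52 (edgeR adjusted p = 0.0444), and without cocultured replicate 3 Tyk2 passed at 0.32 (edgeR adjusted p = 0.0226). Tyk2 also passed with library size as the only scaling, at 0.30 (edgeR adjusted p = 0.0456), and with limma on log2(FPKM + 1), at 0.26 (adjusted p = 0.0497).

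Of the other STAT genes, Stat3, which carries interleukin-6 signals, had counts of 3202, 2971 and 3027 alone and of 2676, 2552 and 2404 with Th17 cells. The groups did not overlap, and Stat3 was lower at −0.34 (SE 0.0643, edgeR adjusted p = 0.00271). Stat5a, Stat5b and Stat6 did not pass, and Stat4 had 1 count in all.

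Among the other IRF genes, Irf5, which acts downstream of Toll-like receptors and is abundant in macrophages, had 589, 507 and 468 counts alone and 115, 140 and 103 with Th17 cells. This equalled −2.19 ± 0.137 (SE) in log2 units, at an edgeR adjusted p of 2.63e-06. Of its 2905 exon bases, 411 are shared with Tnpo3 on the opposite strand. Whether the lower Irf5 is linked to the lower macrophage marker sum given above was not tested. Irf3, the constitutive partner of Irf7 in viral sensing, was at −0.25 and did not pass (SE 0.135, edgeR adjusted p = 0.184). Irf2bp2, a co-repressor that binds IRF2, was higher by 0.23 (SE 0.0671, edgeR adjusted p = 0.0269), a call that was lost without any 1 of 5 libraries, all except cocultured replicate 3. Of the 5080 exon bases of Irf2bp2, 1039 are shared with Gm26759 on the opposite strand. Irf4 and Irf8 had 9 counts or fewer in each library.

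Feedback regulators of the cytokine receptors split by gene. Usp18, which binds IFNAR2 and blocks type I signalling and which overlaps Gm44148 on the opposite strand, had 6001, 6022 and 5380 counts alone and 1917, 1769 and 2227 with Th17 cells (−1.63 ± 0.0816 (SE) in log2 units, with 6.5e-07 as the adjusted p of edgeR). Socs3, the inhibitor induced by STAT3, was higher, as Socs1 was. It had 434, 459 and 416 counts alone and 2388, 2435 and 3134 with Th17 cells (2.53 ± 0.113 (SE) in log2 units, with 3.17e-07 as the adjusted p of edgeR). Cish, induced by STAT5, had 247, 116 and 250 counts alone and 1787, 1089 and 1137 with Th17 cells (2.63 ± 0.286 (SE) in log2 units, with 0.000107 as the adjusted p of edgeR). The exons of Cish share 261 bases with Gm17040 and 479 bases with Gm17041, on the opposite strand. Socs5 was also higher, at 0.63 (SE 0.0858, edgeR adjusted p = 0.000442). Socs2 was lower at −0.58 (SE 0.177, edgeR adjusted p = 0.03), and this call was lost with limma and without any 1 of 5 libraries, all except cocultured replicate 3. The remaining 10 tested regulators, among them Socs4, Socs6, Socs7, Ptpn1, Ptpn2, Ptpn11 and the Pias genes, did not pass.

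**Figure D4:**
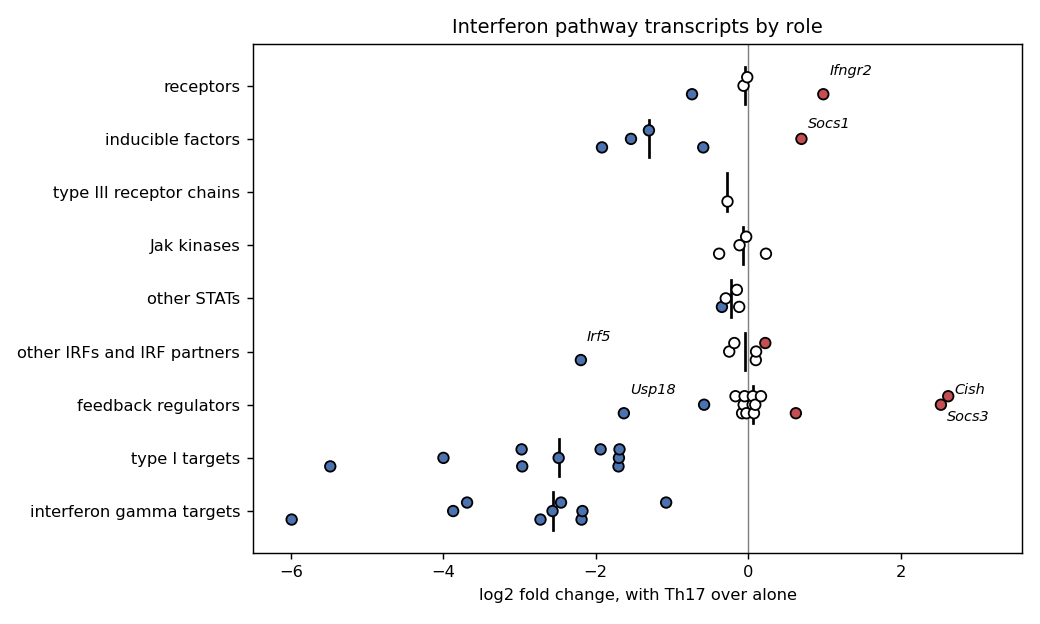
Log2 fold change with Th17 cells over alone (horizontal axis) of the 9 members and of 48 further genes of the route, by role. Blue points are lower and red points higher at an edgeR adjusted p below 0.05, white points did not pass, and black ticks are medians; all 18 targets lie below −1, while the 4 Janus kinases lie between −0.38 and 0.23.

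All tested genes of both target lists were lower. Of 10 type I targets 9 were tested, with log2 fold changes from −5.48 (Mx1) to −1.69 (Ifit1) and a median of −2.49. Of 10 interferon gamma targets 9 were tested, from −5.99 (Cxcl9) to −1.08 (Irgm1), with a median of −2.57. Cxcl9 had 6, 1 and 1 counts with Th17 cells, near the floor. Its size is therefore uncertain, from −7.28 to −2.25 over the alternatives given below. Each of these medians lies below the value of any of the 5 factors. Single targets and factors overlapped, however, since Ifit1 and Irgm1 were less reduced than Irf7, at −1.92. Many of these targets are known to answer to both kinds of interferon, so the branches cannot be told apart from these lists.

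To describe which transcripts had the pattern most like a factor, the distance between log2 CPM profiles over the 6 libraries, each centred on its mean, was computed for 9731 genes with at least 100 counts on average. The genes nearest to Irf7 were Slfn8 (root mean square distance 0.0423 log2 units, log2 fold change −1.84) and H2-Q6 (0.0452, −1.86). Znfx1 (0.0384, −1.27) and Ptpn13 (0.0421, −1.35) were nearest to Stat2, and 3632451O06Rik (0.0807, −1.48) and Ntn1 (0.0928, −1.49) to Irf1. Irf9 was nearest to Rpl38 (0.0324, −0.58) and Kdelr2 (0.0361, −0.57). Socs1 was nearest to Pqlc2 (0.0363, 0.68) and 4930430F08Rik (0.0561, 0.71). With 2 groups of 3 libraries, likeness mostly reflects a fold change of similar size. Slfn8 and H2-Q6 belong to families of similar genes, and their counts are uncertain where reads are shared.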

How the data were processed

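RNA of 6 fibroblast samples was sequenced on an Illumina NovaSeq after library preparation with a VAHTS kit. The authors passed reads through Seqtk, used HISAT2 2.0.4 for alignment (build mm10 in the submitters' processing notes) and counted fragments per gene with StringTie 1.3.3b. The deposited table holds raw fragment counts and, beside them, FPKM values made by the authors. The use of strand and the handling of fragments that match several genes were not stated. Exons of Il10rb, Jak3, Tyk2 and Stat3, among others, also overlap those of other genes. GENCODE vM21 (GRCm38, the same build as mm10) holds 34344 of the gene identifiers, and 99.7% of these overlap their annotated position.

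Groups were taken from sample titles. All 34745 rows entered the library totals. Counts were tested in R 4.3.3 with edgeR 4.0.16 (filterByExpr, TMM, glmQLFit, glmQLFTest, Benjamini-Hochberg over 13088 genes). The thresholds were an adjusted p of 0.05 and, where stated, a fold change of 2, as in the study's methods. SE is the log2 fold change divided by the square root of F, and 95% intervals use the t distribution of the fit. CPM per kilobase uses the union of annotated exons. Floors cover counting error only, since PCR copies were not marked by molecular identifiers. Exact permutation tests used scipy 1.17.1, alternatives used DESeq2 1.42.0 and limma 3.58.1, and the scripts were tested on simulated data. Certain list genes are not reported here and were left out of the list counts, but not of the fit. The members, lists and rules for named genes were chosen with earlier results of these data known. Named were all members, list genes past an adjusted p of 0.05, the Janus kinases, Stat3, Ifnb1, Ifng, Irf3 and Usp18, and the 2 genes most alike to each factor. Il10rb, Ifna4, overlapping genes and other genes named by count only were added after their values were seen. The ratios between members were not part of the plan.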

Additional observations from a re-analysis of the deposited data

How the results depend on the processing

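The 7 members called at an adjusted p below 0.05 kept their direction and call under all 14 alternatives (DESeq2, relative log expression, upper quartile or library size scaling, no filter or at least 10 counts in every library, the replicate block, limma on log2(FPKM + 1), and leaving out each library), and Ifnar1 and Ifngr1 were called under none. Log2 fold changes ranged from −1.97 to −1.79 for Irf7, −1.70 to −1.20 for Irf1, −1.36 to −1.22 for Stat2, −0.64 to −0.48 for Irf9, 0.59 to 0.81 for Socs1, −0.76 to −0.65 for Ifnar2 and 0.97 to 1.05 for Ifngr2. The pathway list gave 21 to 23 lower and 3 to 6 higher genes. The receptor median was 0.0274 with library size only and 0.0264 with limma, and from −0.0557 to −0.0046 when each library was left out; the factor median was −1.24, −1.20 and from −1.36 to −1.23. Library size only shifted the median of all genes by 0.06. Over all genes limma gave 223 higher and 402 lower past the fold limit (625), against 506 and 1018 (1524), and the cause was not tested. Lower genes made up 53.8% of calls, and 43.9% with library size only. The replicate numbers were not treated as pairs, because nothing in the titles says that they pair the libraries. Deviations of libraries with the same number correlated between −0.026 and 0.016, which cannot exclude pairing with 3 libraries in a group. The replicate block left 5 members lower and 2 higher and gave 4513 genes against 4856, and it ended the call of Irf2bp2 (0.22, edgeR adjusted p = 0.0535). Depth limits the ligands, with at most 6 counts in a library.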

Other observations

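For 7.58% of 9734 genes the length implied by the deposited counts and FPKM lay within 1% of the union of annotated exons, and for none of the 8 members with such a length. Counts and FPKM of lone replicate 1 imply a length of 6421 bases for Irf7 and 8582 bases for Irf9, whereas these genes span 3776 and 6460 bases of the genome in the same table. For Stat2 and Ifngr2 the implied lengths were 4481 and 3504 bases, shorter than their unions of annotated exons of 5926 and 3767 bases. For Socs1 the union of annotated exons, 2908 bases, was longer than its span of 1729 bases. A difference between groups within a gene is not touched by the length used, but the order of levels between genes is.

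The ratio of Irf7 to Irf9, counted per kilobase of annotated exon, was 4.719, 4.956 and 4.801 in lone libraries and 2.30, 1.78 and 1.74 in cocultured libraries. Both genes were lower, and the change of the ratio was −1.33 on the log2 scale (two-sided exact permutation p = 0.1, the smallest that 3 against 3 libraries allows). The p of this ratio is not separate evidence either, since the members were chosen with results known. Within the cocultured group, replicate 1 had the highest Irf7 and Irf1 counts of its group and the lowest Irf9 and Socs1 counts.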
